A study of Mus musculus with 18 samples.

Results

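Prg2, Prg3, Epx, Alox15 and Gzmb, 5 genes of eosinophil granules and effector functions, were followed through mouse bone marrow (BM) from late gestation to adulthood. They were chosen by name from the 20275 genes of the deposited matrix of transcript counts, and all 5 were present in it. Counts came from single hematopoietic progenitors (HPs), sorted from C57B6/J mice as CD45+, lineage-negative and Kit+ BM cells, and were made with the 10x 3′ chemistry. Kit is the stem cell factor receptor, carried by progenitors and by mast cells. There were 2 HP libraries from embryonic day (E) 16.5 and 1 library each from E18.5, from postnatal day (P) 0 and from adult BM. No mouse was treated or genetically altered. Each library was a pool of mice, so a difference between stages had no replicate check outside the E16.5 pair. Every HP cell carried a cluster code given by the authors, and the 5 libraries together held 20982 HP cells in 88 clusters, counted per library.

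Eosinophils are granulocytes of parasite defence and allergy that arise in BM under IL-5, and their progenitors fill their granules with basic proteins before they leave the marrow. Prg2 encodes the proform of major basic protein, the core of the crystalloid granule, and Prg3 encodes its close homolog. Epx encodes eosinophil peroxidase, which makes oxidants from hydrogen peroxide and halides. Alox15 encodes an arachidonate lipoxygenase that makes lipid mediators. Gzmb encodes granzyme B, a serine protease of killer lymphocyte granules that other blood cells can also make.

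Prg2 (chr2:84980461-84983632, plus strand, GRCm38) and Prg3 (chr2:84988215-84993886, plus strand) were neighbours, with 4583 bp from the end of Prg2 to the start of Prg3. Epx (chr11:87864000-87875536, minus strand) lay 59588 bp, between nearest ends, from Mpo, the gene of the related myeloperoxidase of neutrophil and monocyte progenitors. Alox15 lay on the same chromosome (chr11:70344152-70352031, minus strand), and Gzmb on chromosome 14 (chr14:56258838-56262260, minus strand). The annotation gave all 5 as protein coding. Of the 5 genes, 3 (Prg3, Epx and Gzmb) had an entry in the RefSeq promoter table (GRCm38.p6), and Prg2 and Alox15 had none. The 250 bases before the gene start of Prg3 (chr2:84987965-84988214, plus strand) and of Epx (chr11:87875537-87875786, minus strand) are shown because these 2 granule genes were found in the same cells. Capitals mark matches to 4 short motifs, searched on both strands: GATAA, known from factors such as Gata1, TTGCNNAA, known from C/EBP factors, GAGGAA, known from PU.1, and TATAA, the box near many transcription starts, which was added after these sequences had been seen.
Prg3: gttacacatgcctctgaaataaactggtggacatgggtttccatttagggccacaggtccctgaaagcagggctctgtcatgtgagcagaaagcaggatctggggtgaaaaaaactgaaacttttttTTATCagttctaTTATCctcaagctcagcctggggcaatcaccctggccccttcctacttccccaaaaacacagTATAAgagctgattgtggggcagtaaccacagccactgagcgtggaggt
Epx: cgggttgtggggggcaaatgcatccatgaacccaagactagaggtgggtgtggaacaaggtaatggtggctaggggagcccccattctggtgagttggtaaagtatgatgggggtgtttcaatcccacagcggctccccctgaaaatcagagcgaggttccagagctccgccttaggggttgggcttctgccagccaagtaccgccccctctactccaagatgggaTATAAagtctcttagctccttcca

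The Prg3 window held GATAA on the minus strand, read as TTATC, with first bases 123 and 111 bases upstream of the start, and TATAA 49 bases upstream. The Epx window held TATAA 24 bases upstream and none of the other motifs, and the Gzmb window held none of the 4. GATAA was present in 22.6% of 32851 windows of the same length in the promoter table, TTGCNNAA in 9.56%, GAGGAA in 23.3% and TATAA in 22.8%. A match describes letters only, and these shares are high enough that matches are common in any promoter.

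The first E16.5 library held 560 cells and the others between 3477 and 6208, with 13974733 to 127489333 UMIs (counted transcript molecules) in all and a median of 6747 to 23291.5 UMIs per cell. Cells under 1000 UMIs made up 27.5% of the E18.5 library and 17.0% of the adult library, against at most 4.14% elsewhere. Many cell barcodes were found in more than 1 library. Of the 560 barcodes of the first E16.5 library, 330 were also in the adult library, where their median was 668 UMIs against 30840, and 153 were also in the P0 library. The E18.5 and adult libraries shared 375 barcodes, at medians of 52117 and 497 UMIs. Cells whose barcode had a deeper partner in another library were 104 of the E18.5 cells (2.99%), 249 of the P0 cells (4.01%) and 694 of the adult cells (11.6%), and they filled 76.3% of P0 cluster Mast4, 97.6% of E18.5 cluster Mast/Bas, 92.0% and 65.0% of adult Mast4i and Mast4ii, and 47.8% of adult MyP4. In EosP at P0 and in Eos/Bas2 at E18.5, where the granule genes lay, none of the 110 and 157 cells had such a partner. Removing these cells left each of the 25 levels per gene and library within 0.961 to 1.01 times its value, and the tests of members were repeated without them.

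Transcripts of the granule genes Prg2 and Epx were nearly absent from the sorted HPs of E16.5 BM and present in those of every later stage. Hematopoietic cells without Kit or with lineage markers were outside the sort, so their levels are not known here. Levels are CPM, the UMIs of the gene scaled to 1000000 UMIs of the library, with exact Poisson 95% intervals that cover counting error only. Prg2 had 0 UMIs in the first E16.5 library, 87 UMIs or 0.908 CPM (0.727 to 1.12) in the second, 266 CPM (262 to 269.7) at E18.5, 275.5 CPM (273 to 278) at P0 and 165 CPM (162 to 169) in the adult. Both E16.5 libraries thus lay far below the other 3, and the P0 level was 303-fold that of the second E16.5 library and at least 1283-fold that of the first, set at the 3 UMIs that a count of 0 allows. Epx had 0 UMIs and 4 UMIs (0.0417 CPM, all in 1 cell) at E16.5, 20.4 CPM (19.3 to 21.6) at E18.5, 17.9 CPM (17.2 to 18.6) at P0 and 10.3 CPM (9.45 to 11.1) in the adult. From the highest level down, its order over the stages was E18.5, P0, adult and E16.5, and with 1 library at each of the first 3 the neighbours in that order have no spread over samples to be set against.

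Prg3 differed from its neighbour Prg2 by being present at E16.5. It had 6.23 CPM (4.99 to 7.68) and 5.56 CPM (5.10 to 6.05) in the E16.5 libraries, 62.0 CPM (60.1 to 63.9) at E18.5, 46.6 CPM (45.4 to 47.8) at P0 and 18.2 CPM (17.1 to 19.3) in the adult. The intervals of the E16.5 pair overlapped, and the E18.5 level was 9.96- and 11.1-fold theirs. Alox15 had 2.93 CPM (2.11 to 3.98) and 0.741 CPM (0.579 to 0.935) at E16.5, 8.42 CPM (7.73 to 9.16) at E18.5, 2.24 CPM (1.99 to 2.52) at P0 and 0.794 CPM (0.583 to 1.06) in the adult. The P0 and adult levels of this lipoxygenase lay within the range of the E16.5 pair, and the E18.5 level lay above it. Gzmb had 23.8 CPM (21.3 to 26.5) and 14.7 CPM (14.0 to 15.5) at E16.5, 49.6 CPM (47.9 to 51.4) at E18.5, 38.3 CPM (37.2 to 39.3) at P0 and 3.60 CPM (3.13 to 4.11) in the adult. Granzyme B was thus the only member whose adult level lay below both E16.5 libraries, 6.60- and 4.10-fold below.

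**Figure D1:**
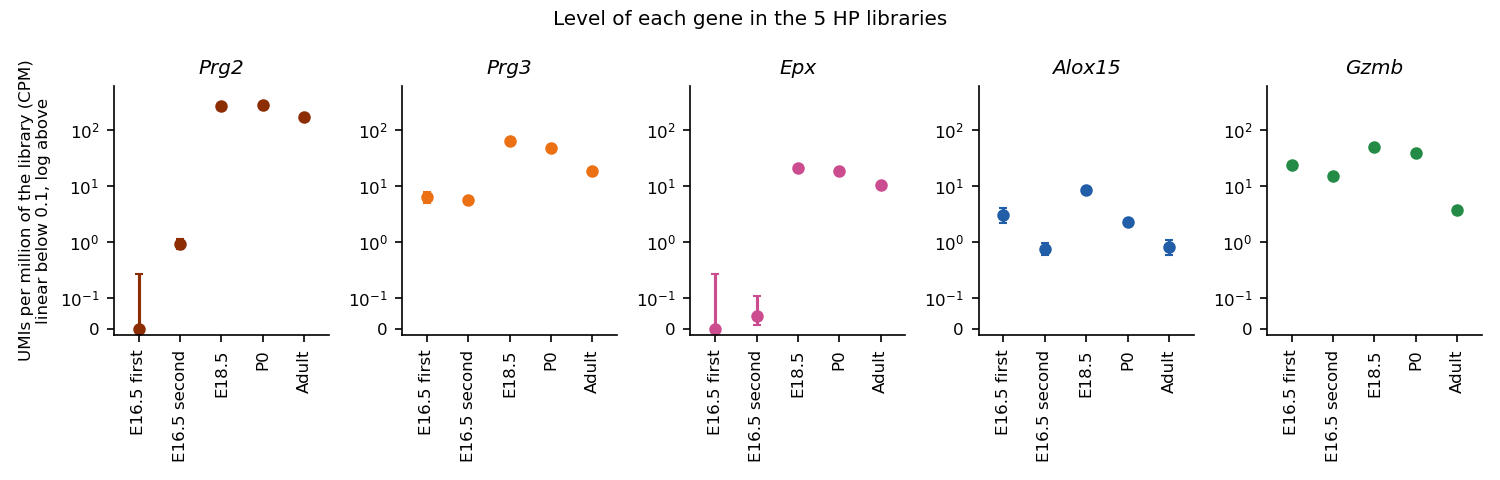
Level of each gene in each HP library in CPM, on an axis that is linear below 0.1 and logarithmic above. Points are libraries and bars are exact Poisson 95% intervals. Prg2 and Epx sit at or near 0 in both E16.5 libraries and at 165 to 275.5 CPM and 10.3 to 20.4 CPM in the other 3, whereas Gzmb is lowest in the adult at 3.60 CPM.

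A test over summed libraries was possible only because E16.5 had 2 libraries, and it assumed that the lone libraries vary as that pair did, with 1 residual degree of freedom. The pair differed in makeup. T and NK cell clusters held 18 of 560 cells in the first library and 2141 of 4752 in the second, and Mono/Mast held 161 and 142. The spread behind the p-values includes this difference in cell types. With edgeR's quasi-likelihood test and Benjamini-Hochberg adjustment over 16114 genes, 1 gene, or 0.00621%, was called between E18.5 and E16.5, and it was no member. All 5 members had an unadjusted p under 0.05 there, as had 6.5% of all genes, and DESeq2, which called 2.47% of genes, called 2 of the members, Prg3 and Epx. Between P0 and E16.5, where 0.292% of genes were called, Prg2 rose (log2 fold change 8.86, SE 1.18, edgeR adjusted p 0.0468), and so did Epx (8.92, SE 0.81, edgeR adjusted p 0.0213). Prg3 did not pass at P0 (2.98, SE 0.44, edgeR adjusted p 0.0561). Between the adult and E16.5, where 2.35% of genes were called, Prg2 rose (8.30, SE 1.15, edgeR adjusted p 0.0156) and Epx rose (8.30, SE 0.81, edgeR adjusted p 0.00740). Prg3 (1.81, edgeR adjusted p 0.103), Gzmb (-2.23, edgeR adjusted p 0.110) and Alox15 (-0.95, edgeR adjusted p 0.712) did not pass in the adult.

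Calls of members in these sums depended on the method. Without the cells that share a barcode with a deeper cell, Prg2, Prg3 and Epx passed the edgeR test at E18.5 (adjusted p 0.0216, 0.0235 and 0.0115, among 0.41% of genes) and Prg3 also at P0 (0.0226, among 0.877%). With RLE normalization in edgeR the same 3 genes passed at E18.5 (adjusted p 0.0497, 0.0497 and 0.0447, among 0.217% of genes) and Prg3 at P0 (0.0434, among 0.484%). With no filter on low counts, where edgeR called 2.48% of genes at E18.5, 3.65% at P0 and 7.75% in adult BM, these 4 calls were made and Prg3 (adjusted p 0.0127) and Gzmb (0.00501, lower) passed in the adult too. DESeq2 did not call Prg2 at P0 (adjusted p 0.0916) or in the adult (0.0790), but it called Prg3 at P0 (2.97e-05, among 3.95% of genes) and, in the adult, Prg3 (0.0323) and Gzmb (0.00403, lower), among 7.96%. In summed libraries, more cells of a type and more RNA per cell cannot be told apart, and the makeup of the libraries differed. Of 10 mast cell genes, 8 fell and 0 rose in the adult, and of 10 neutrophil genes 10 rose. The pathways of the members were counted in the same fit, whose shares of all genes called are given above. A gene that was not called is not shown to be unchanged. Of 15 eosinophil regulators and receptors, 1 (Cebpe, a factor of late granulocyte maturation) rose in the adult and 0 were called at E18.5 or P0. Of 3 eosinophil ribonucleases tested, 0 changed at any stage, with Ear6 at 6.63 (edgeR adjusted p 0.104) at E18.5. Of 11 lipoxygenase pathway genes and 7 granzyme partners tested, 0 were called at any stage. Of 6 peroxidases and oxidase subunits, 1 (Mpo) rose in the adult. Of 6 genes of proteoglycans and granule packaging, 1 (Clec12a, a lectin receptor) rose there. From the same list 2 (Hdc, which makes histamine, and Ndst2, which sulfates heparin) fell in the adult. Neither list had a call at E18.5 or P0.

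Within a library, Prg2, Prg3 and Epx were concentrated in 1 cluster at each stage from E18.5. These are descriptions without a test, since the authors made the clusters from the expression of variable genes in the same cells. At E18.5, cluster Eos/Bas2 held 4.52% of the cells and 94.8% of Prg2 UMIs (94.4 to 95.1, exact binomial interval), 95.1% of Prg3 UMIs and 93.7% of Epx UMIs. At P0, cluster EosP held 1.77% of the cells and 91.2%, 87.1% and 88.7% of these UMIs. In the adult, cluster Eos/Bas4 held 2.94% of the cells and 65.1%, 58.3% and 78.9%, so that more of the adult transcripts lay elsewhere. Prg2 reached 2912 CPM in Eos/Bas2, 17252 CPM in EosP and 4011 CPM in Eos/Bas4, and Epx 221 CPM, 1091 CPM and 301 CPM. The next cluster by Prg2 level was 10.6-fold lower at E18.5 (UD2i), 89.6-fold lower at P0 (HSPC4) and 10.3-fold lower in the adult (MyP4).

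**Figure D2:**
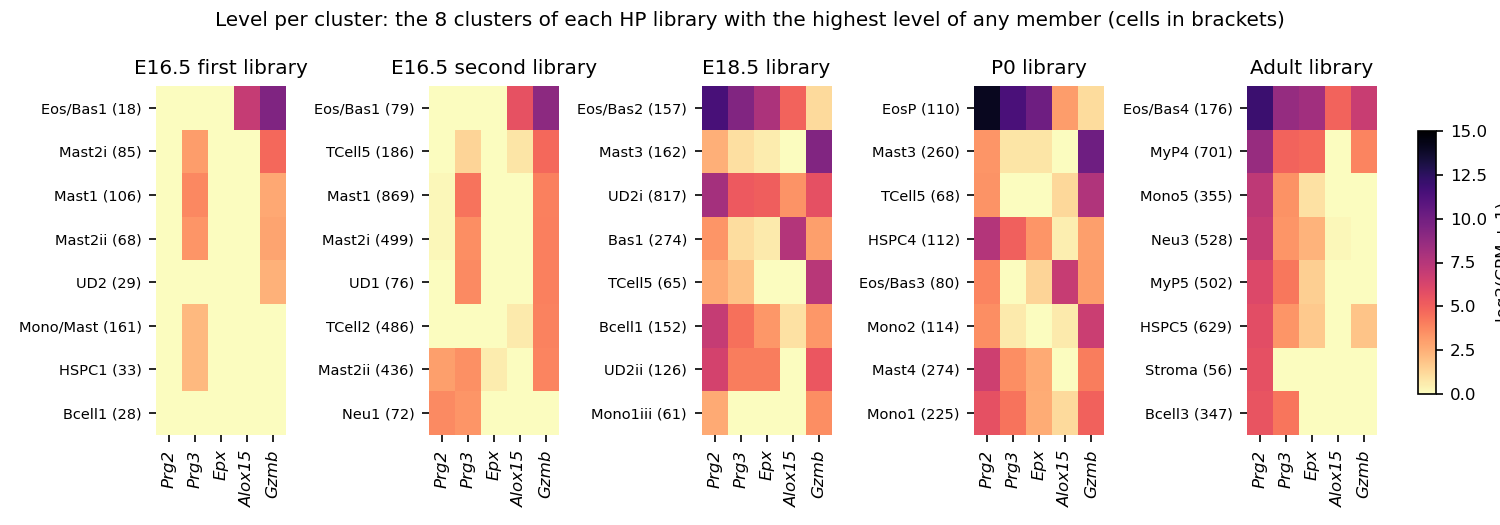
Level of each gene, as log2(CPM + 1) of UMIs summed per cluster, in the clusters of each library with the highest level of any member. Cell numbers are in brackets. Prg2, Prg3 and Epx peak together in Eos/Bas2, EosP and Eos/Bas4, while Alox15 and Gzmb peak in Eos/Bas1 at E16.5, where the other 3 are at 0, and apart from each other at E18.5 and P0.

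The E16.5 cluster of the same name carried none of the 3. Eos/Bas1 held 18 and 79 cells in the E16.5 libraries, and not 1 UMI of Prg2, Prg3 or Epx was found in it, at medians of 20195.5 and 11884 UMIs per cell. P0 had another cluster of this kind, Eos/Bas3, whose 80 cells held 9 UMIs of Prg2, 0 of Prg3 and 1 of Epx. The names of these clusters join eosinophils and basophils, and the split between the granule genes and the remaining cells ran through 2 of them.

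Cells with at least 1 UMI of at least 2 of Prg2, Prg3 and Epx are called granule cells here. There were 0 among 560 cells and 4 among 4752 cells at E16.5 (0.0842%), 69 at E18.5 (1.98%, 1.55 to 2.50), 203 at P0 (3.27%, 2.84 to 3.74) and 54 in the adult (0.902%, 0.679 to 1.18). All 3 genes were found together in 34 cells at E18.5, in 120 at P0 and in 31 of the adult. After thinning every cell to 1000 UMIs, which leaves out shallower cells (957 of the E18.5 cells, 257 of the P0 cells and 1017 of the adult cells), the shares were 0.0211% in the second E16.5 library, 1.31%, 1.76% and 0.483%, in the same order. Granule cells held 97.6% of all UMIs of the 3 genes at E18.5, 97.3% at P0 and 94.9% among adult cells. Free RNA can give such calls too, and B cells, which should lack these genes, were granule cells in 4 of 152 (2.63%) at E18.5, 1 of 387 (0.258%) at P0 and 2 of 1139 (0.176%) in the adult. Erythroid progenitors, which should lack them too, were granule cells in 3 of 205 (1.46%), 10 of 465 (2.15%) and 3 of 474 (0.633%). Median depths were 22806, 13862 and 2907 UMIs in B cells and 46052, 37938 and 27905.5 UMIs in erythroid progenitors, against 12364, 19447.5 and 6747 UMIs in the libraries. The E18.5 share over all cells thus did not exceed that in B cells, and the P0 and adult shares were near those in erythroid progenitors, so shares of cells are not read as expression and levels per cell are given instead. Of the granule cells, 37 at E18.5, 136 at P0 and 34 of the adult held at least 10 UMIs of the 3 genes.

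The granule cells of the leading clusters held all 3 genes at each stage from E18.5, at levels that were not tested between stages. At E18.5, 38 of 157 Eos/Bas2 cells were granule cells, with 13608 CPM of Prg2, 3186 CPM of Prg3 and 1028 CPM of Epx, against 3.18, 0.680 and 2.04 CPM in the other 119 cells. At P0, all 110 EosP cells were granule cells, with 17252, 2788 and 1091 CPM and between 33 and 1498 UMIs of the 3 genes per cell (median 294.5). In the adult, 22 of 176 Eos/Bas4 cells were granule cells, with 22093, 2190 and 1684 CPM, against 67.4, 3.83 and 0 CPM in the other 154. Of the 88 Prg2 UMIs in those other cells, 73 came from 1 cell. The 2 Eos/Bas4 cells with a deeper barcode partner held 73 Prg2 UMIs. The split was made on these genes, so their gap is a description. On the CPM scale Prg2 was highest in the adult and Prg3 at E18.5. In UMIs per cell the median of Prg2 had the opposite order, with 436 in the E18.5 cells, 228.5 in the P0 cells and 116 in the adult cells, and the median depth of these cells was 35099.5, 15073 and 13291.5 UMIs. With 1 pool of mice behind each value, no order is read from them.

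Genes that the split did not use also differed between these cells, again as a description. Of 16 genes of the eosinophil list with enough UMIs in Eos/Bas2, 7 were more than 2-fold higher and 4 more than 2-fold lower in granule cells (median log2 ratio 0.58), and of 12 in Eos/Bas4, 4 were higher and 4 lower (median -0.11). Of the neutrophil genes, 5 of 7 were higher in Eos/Bas2 (median 1.83), and 2 of 8 were higher and 4 lower in Eos/Bas4 (median -0.67). The median over all genes was -0.04 and -0.05. Cebpe stood at 634, 640 and 548 CPM in the granule cells of E18.5, P0 and adult, and at 11.3 and 6.13 CPM in the other Eos/Bas2 and Eos/Bas4 cells. Il5ra, the receptor chain for IL-5 that marks eosinophil progenitors, stood at 50.05, 64.1 and 59.8 CPM, and at 1.81 and 0 CPM in the other cells. Mpo was high in the granule cells, at 4476, 4674 and 4168 CPM, and lower in the others, at 1608 and 1577 CPM. Siglecf, a surface lectin of eosinophils, was at 84.2 CPM in granule cells and 39.2 CPM in the other cells of Eos/Bas2, whereas Ccr3, the eotaxin receptor of mature eosinophils, was at 0.834, 0 and 0 CPM in granule cells. Of the eosinophil ribonucleases, which are near-identical copies whose reads may be shared, Ear1 was at 219, 471 and 94.9 CPM and Ear6 at 267, 183 and 17.6 CPM. Cell cycle genes were present in both, with Top2a at 405 CPM in the granule cells of Eos/Bas2 and 514 CPM in the others.

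The other cells carried basophil genes. In Eos/Bas2, Mcpt8, a basophil protease, was at 2022 CPM in the other cells and 118 CPM in granule cells. All 10 basophil genes of the list were more than 2-fold lower in the granule cells of Eos/Bas2, among 630 lower and 307 higher of 9289 genes with enough UMIs. In Eos/Bas4, 8 of 10 were lower, among 829 lower and 259 higher of 6912. The adult granule cells still held 1877 CPM of Mcpt8 and 2228 CPM of Prss34, another basophil protease, against 84.6 and 112 CPM in EosP, and the Mcpt8 level of the other adult cells was 7135 CPM. Whether these UMIs came from the same cells or from free RNA of basophil-like cells was not tested. Surface CD48, measured by antibody counts, had a median of 78 counts per cell in the E18.5 granule cells and 145 in the other Eos/Bas2 cells. It was 69.5 in EosP against 107 over the P0 library, where Eos/Bas3 had 77.5, Mast3 81 and Bas2 101.5. In adult Eos/Bas4 it was 149.5 against 148, so the groups hardly differed. Median counts of all antibodies were 84.5 and 149 in Eos/Bas2, and 72.5 in EosP against 123 over the P0 library. The CD48 medians came close to these totals, so the totals do not measure antibody signal apart from CD48. In Eos/Bas2 granule and other cells, median counts were 2 and 2 for CD150, 1 and 1 for CD135 and 2.5 and 2 for Ly6AE. In EosP and the whole P0 library they were 0 and 1, 0 and 0, and 2 and 3. At counts this low, whether CD48 alone or antibody signal as a whole was lower was not tested.

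**Figure D3:**
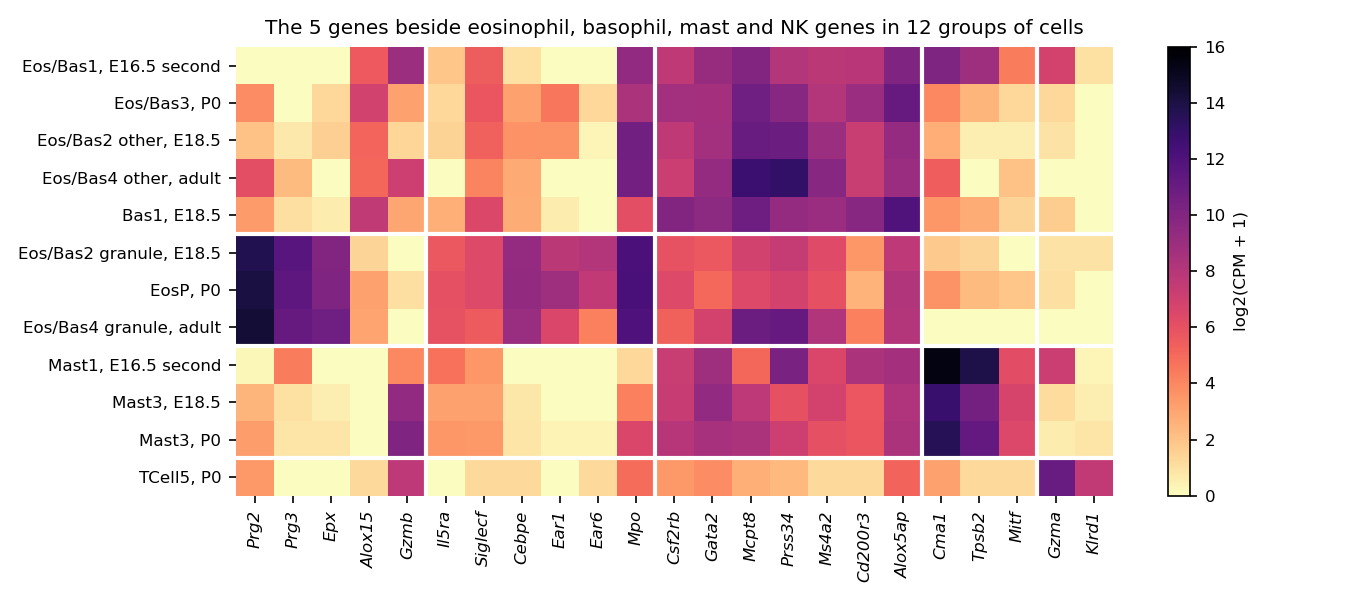
The 5 genes beside eosinophil, basophil, mast and NK cell genes, as log2(CPM + 1) of UMIs summed over groups of cells. White lines separate the kinds of groups and of genes. The granule cell groups share Il5ra, Cebpe and the Ear genes, with Il5ra also present in Mast1. Of the whole eosinophil list, 7 genes were higher and 4 lower in granule cells of Eos/Bas2, and 4 and 4 in Eos/Bas4. The groups above them share Mcpt8, Prss34 and Cd200r3 with Alox15. Gzmb is high in Mast3 and TCell5, and also in Eos/Bas1 (500.1 CPM) and the other adult Eos/Bas4 cells (136 CPM).

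Eos/Bas2 held 55.1% of the granule cells of E18.5, EosP 54.2% of those of P0 and Eos/Bas4 40.7% of those of the adult. Granule cells of the other E18.5 clusters held a median of 2 or 3 UMIs of the 3 genes, against 550.5 in Eos/Bas2, and over the other adult clusters this median ran from 2 to 356. Single cells set the level of several other clusters. In P0, 23 granule cells were in Bas2, 20 in MyP2 and 12 in MyP3. In E18.5 cluster Bcell1, 416 of 426 Prg2 UMIs came from 1 cell. The same held for HSPC4 at P0 (643 of 967) and for adult Mono5 (988 of 1040), Neu3 (645 of 684) and MyP5 (487 of 542). In the second E16.5 library, 57 of 58 Prg2 UMIs of Mast2ii came from 1 cell, and so did 22 of 24 Prg2 UMIs of Neu1. No doublet caller was run here, so a single cell of this kind and 2 cells in 1 droplet cannot be told apart. Leaving out cells above the 95th percentile of UMIs brought the share of Prg2 in the leading cluster from E18.5 on to 97.2%, 94.0% and 78.4%. In the shallow cluster UD2i at E18.5 (median 476 UMIs), 158 of 817 cells held Prg2, at 275 CPM, near the 266 CPM of the whole library.

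Some granule cells shared a barcode with adult cells, as E18.5 cells did in general. Of the 38 granule cells of Eos/Bas2, 5 shared a barcode with adult MyP4 cells of a median 440 UMIs. Of all E18.5 barcodes, 10.8% were also in the adult library, and 277 MyP4 cells had their deepest partner at E18.5. The 5 MyP4 cells held 5 UMIs of Prg2, 5 of Prg3 and 0 of Epx, among the 231 Prg2 UMIs of MyP4.

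The balance of Prg3 and Prg2 differed between clusters. UMIs are counted at the 3′ end and do not scale with transcript length, and the balance is compared between clusters only. Prg3 made up 19.0% of Prg2 and Prg3 UMIs together in Eos/Bas2 (18.4 to 19.5), 13.9% in EosP (13.6 to 14.3) and 8.97% in Eos/Bas4 (8.31 to 9.66). In the myeloid progenitor cluster MyP2 it made up 48.1% at E18.5 (40.0 to 56.2) and 55.5% at P0 (50.02 to 60.9), on 75 and 186 UMIs of Prg3. At E18.5 1 MyP2 cell held 80 of the UMIs of Prg2, Prg3 and Epx, against 81, 75 and 4 in the whole cluster. At P0 1 MyP2 cell held 60, against 149, 186 and 12. P0 clusters Bas2 (29.6%) and MyP3 (30.8%) lay between. In Bas2 1 cell held 80 of 274 Prg2 UMIs. In MyP3 1 cell held 202 of the UMIs of Prg2, Prg3 and Epx, against 249, 111 and 15 in the whole cluster. The intervals take UMIs of 1 cell as independent and do not cover the spread between cells. Adult Bcell4, of 105 cells, held 25 UMIs of Prg3 in 15 cells and 6 of Prg2 (80.6% Prg3, 62.5 to 92.5), and adult Bcell3 held 15 of Prg3 and 35 of Prg2.

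At E16.5 most Prg3 UMIs lay in mast cell clusters, and apart from 1 cell of Mast2ii these held at most 5 UMIs of Prg2 in either library. Mast cells are tissue cells with protease granules, and clusters Mast1, Mast2i and Mast2ii held 259 of the 560 cells of the first E16.5 library. These clusters together held 70 of 87 Prg3 UMIs in the first library (80.5%; 9.50 CPM; 41 of 259 cells) and 461 of 533 in the second (86.5%; 14.1 CPM; 292 of 1804 cells). In Mast1, 15 of 106 and 156 of 869 cells held Prg3, mostly 1 UMI and at most 15, while Prg2 had 0 and 2 UMIs. T and NK cell clusters of the second library held 0.468 CPM of Prg3 and B cells 0.877 CPM. Mast1 was the highest cluster in both libraries, at 12.3 and 19.7 CPM, but its interval overlapped that of the next cluster, Mast2ii (9.06 CPM) in the first and the unnamed cluster UD1 (11.6 CPM on 9 UMIs, 5.32 to 22.1) in the second. Neu1 (8.85 CPM on 18 UMIs) was near Mast2i (10.54 CPM) and Mast2ii (10.3 CPM) in the second library, and Mono/Mast was at 3.62 and 4.86 CPM. Mast cell transcripts were spread widely, with Cma1, a mast cell chymase, found in 89.0% of all cells of the second library at 13301 CPM. Within Mast1 of the second library, cells with and without Prg3 were close in Cma1 (50400.4 and 43571 CPM) and in Il5ra (26.7 and 25.2 CPM), and Cebpe had 0 UMIs in both.

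Mast cell clusters were then compared between stages on summed UMIs, with Mast3 at E18.5, Mast3 and Mast4 at P0, and Mast4i and Mast4ii in the adult. Of the 5 members, 3 (Prg2, Prg3 and Gzmb) passed the filter on low counts. Alox15 had 0 UMIs in the mast cell clusters of every library, and Epx at most 4. Gzmb stood at 13.4 and 14.4 CPM at E16.5, 688 CPM at E18.5, 1040 CPM at P0 and 7.60 CPM (2 UMIs) in the adult. It rose at E18.5 (log2 fold change 5.51, SE 0.38, edgeR adjusted p 3.83e-07), where 7.16% of 11393 genes were called. It rose also at P0 (6.16, SE 0.39, edgeR adjusted p 9.95e-08), where 10.8% were called. In the adult, where 2.11% were called, Gzmb did not pass (-0.99, edgeR adjusted p 0.790). Its 2 adult UMIs both lay in cells whose barcode had a deeper partner in another library. Of the 185 Mast4i and 78 Mast4ii cells with such a partner, 181 and 74 had it in the first E16.5 library. With DESeq2 Gzmb kept its calls at E18.5 and P0.

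Prg3 moved the other way in mast cells, from 9.50 and 14.1 CPM to 0.952 CPM (4 UMIs) at E18.5 and 1.22 CPM (5 UMIs) at P0. It fell by 3.74 on the log2 scale at E18.5 (SE 0.58, edgeR adjusted p 0.000756) and fell by 3.34 at P0 (SE 0.56, edgeR adjusted p 0.000928). With DESeq2 both calls of Prg3 were lost (adjusted p 0.329 and 0.457). Prg2 passed at P0 (3.35, SE 0.70, edgeR adjusted p 0.00458) and not at E18.5 (1.76, edgeR adjusted p 0.199) or in the adult (4.09, edgeR adjusted p 0.121). It passed at E18.5 without shared barcodes (edgeR adjusted p 0.0341, among 11.4% of genes) and with no filter (0.0145, among 7.38%), and in the adult with RLE normalization (0.00208, among 3.16%) and no filter (3.14e-05, among 2.3%). At P0 the difference in log2(CPM + 1) was 2.29 without the first E16.5 library and 3.82 without the second. With DESeq2, which called 0.965% of genes at E18.5 and 1.04% at P0, Prg2 passed at no stage. The P0 sum of 13.1 CPM joined 8.93 CPM in Mast3 with 100.1 CPM in the shallow Mast4 (19 UMIs, 60.3 to 156), beside 6.86 CPM in Bcell1 (4.83 to 9.45) and 9.42 CPM in TCell5 (3.79 to 19.4), and the part of free RNA in these values was not tested. Adult mast cell clusters held only 263064 UMIs in 321 cells at a median of 719 UMIs. Without shared barcodes 58 of these cells remained, with 0 UMIs of Prg3 and Gzmb.

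Other genes moved with the mast cell sums. Of 10 mast cell genes, 1 rose and 4 fell at E18.5 and 2 fell at P0, and of 8 neutrophil genes tested 3 rose at E18.5, 6 rose at P0 and 7 rose in adult BM, among them Mpo. Of 7 monocyte genes, 5 rose at E18.5 and 6 at P0, of 6 macrophage genes 4 and 5, among them C1qa, C1qb and Mrc1, and of 8 B cell genes 4 and 5 (median log2 fold change 3.12 and 2.90), against medians of 0.11 and 0.08 over all genes. The part of RNA from these cell types in the changes of Gzmb and Prg3 was not tested. Of 6 granzyme partners tested, 2 rose at E18.5 and at P0, namely Prf1, the pore-forming perforin, and Serpinb6b, a serine protease inhibitor. Prf1 nevertheless reached 7.14 CPM in Mast3 at E18.5 and 23.0 CPM at P0. Gzma, granzyme A, stood at 1.19 and 0.510 CPM in Mast3, and Cd3e, a T cell receptor subunit, had 0 UMIs in Mast3 at both stages.

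The cluster with most Gzmb UMIs differed between stages, as a description. At E16.5 its highest level was in Eos/Bas1, with 696 CPM in the first library, from 4 of 18 cells with up to 94 UMIs, and 500.1 CPM in the second, from 31 of 79 cells with up to 86. These clusters held 69.9% and 38.0% of the Gzmb UMIs of their libraries. At E18.5 and P0 it was in Mast3, which held 89.8% and 87.6%, in 116 of 162 and 213 of 260 cells. Most positive Mast3 cells were high, with 10 or more UMIs in 70 and 123 of them. In the adult it was in Eos/Bas4, with 83.1% of 213 UMIs in 19 of 176 cells, 74 of them in 1 cell. TCell5, a T cell cluster, held 0 Gzmb UMIs in its 13 cells of the first E16.5 library. In the second it held 24.9 CPM in 15 of 186 cells. Its Gzmb level was 170 CPM at E18.5 and 207 CPM at P0, beside 2514 and 2109 CPM of Gzma. Adult T/NK cells held 19.99 CPM of Gzmb. In the second E16.5 library, TCell2 (156 UMIs, 13.8 CPM, 83 of 486 cells) and TCell3 (115 UMIs, 8.69 CPM, 66 of 481 cells) held more Gzmb UMIs than the 67 of TCell5. At P0, monocyte cluster Mono2 held Gzmb in 10 of 114 cells, with 99 of 191 UMIs in 1 cell.

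Gzmb was set beside the other members in single cells of the Eos/Bas clusters. In Eos/Bas1 of the second E16.5 library, the 31 cells with Gzmb held 0 UMIs of Alox15 in 480629 UMIs, and all 50 Alox15 UMIs (84.3 CPM) lay in the 48 cells without Gzmb. In the first library, with 4 Gzmb cells and 9 Alox15 cells among 18, 1 cell held both. The Gzmb cells of the second library also had 6.24 CPM of Mpo against 1239 CPM in its cells without Gzmb. Their Cma1 was at 160 CPM against 1941 CPM, and Mcpt8 at 797 and 1162 CPM. In adult Eos/Bas4, the 19 cells with Gzmb held 0 UMIs of Prg2, Prg3, Epx and Alox15, and all 6374 Prg2 UMIs of the cluster lay in the 157 cells without it. Their Mcpt8 level was 2592 CPM, and 0 of the 22 granule cells held Gzmb. With so few cells of either kind among 176, few shared cells could be found in any case, and no separation is read from this. Cells were split here by a measured gene, so these values are given without a test.

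**Figure D4:**
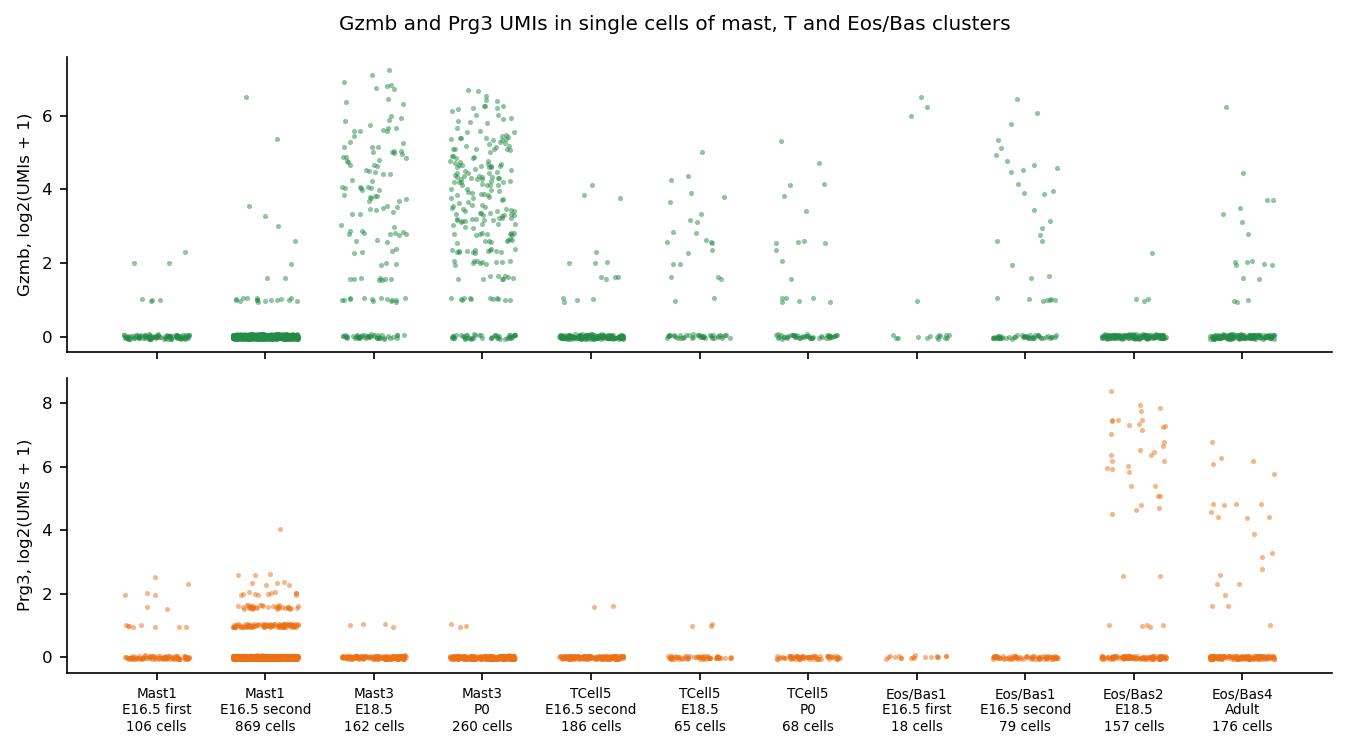
UMIs of Gzmb (top) and Prg3 (bottom) in single cells, as log2(UMIs + 1), with points shifted slightly at random so that they can be told apart. Gzmb is found in most Mast3 cells and in a minority of Eos/Bas1 and Eos/Bas4 cells. Prg3 is found at low UMIs in 14.2% and 18.0% of Mast1 cells at E16.5, and reaches higher UMIs in some of the positive cells, 26.1% of Eos/Bas2 and 13.6% of Eos/Bas4.

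Alox15 was highest in clusters with basophil genes, not in the cells with most granule gene UMIs. At E18.5 it was highest in cluster Bas1, at 193 CPM (173 to 214) in 181 of 274 cells with up to 7 UMIs each, which held 65.8% of its UMIs. At P0 it was highest in Eos/Bas3, at 118 CPM in 42 of 80 cells, and the larger cluster Bas2, at 13.8 CPM in 78 of 520 cells, held 58.0% of its UMIs. At E16.5, Eos/Bas1 held 123 CPM and 46.6 CPM, with 100% and 70.4% of the UMIs, and in the adult Eos/Bas4 held 28.3 CPM and 95.7% of 47 UMIs. Of the cells with Alox15, 3 of 252 at E18.5, 22 of 157 at P0 and 2 of 30 in the adult were granule cells. These stand beside 1.98%, 3.27% and 0.902% of all cells. Free RNA can give such calls, so neither sharing nor separation of cells is read from these shares.

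Inside the mixed clusters the level of Alox15 in granule cells rested on 2 UMIs each. Granule cells of Eos/Bas2 held 2 UMIs of Alox15 (1.67 CPM) and the other cells 156 (35.4 CPM), and in Eos/Bas4 the values were 2 UMIs (7.03 CPM) and 43 (33.0 CPM). EosP held 14 UMIs (7.54 CPM) in 13 of 110 cells. Alox5ap, the protein that hands arachidonate to 5-lipoxygenase, was at 4075 CPM in Bas1 and 2168 CPM in Eos/Bas3, and at 208 and 283 CPM in the granule cells of E18.5 and P0. Alox5 itself was at 193 CPM in Bas1. In Bas1, cells with Alox15 had 2012 CPM of Mcpt8 and cells without it 1157 CPM, at medians of 6823 and 6012 UMIs per cell. Ccr3 was at 63.9 CPM in Bas1, above its level in any granule cell group.

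**Figure D5:**
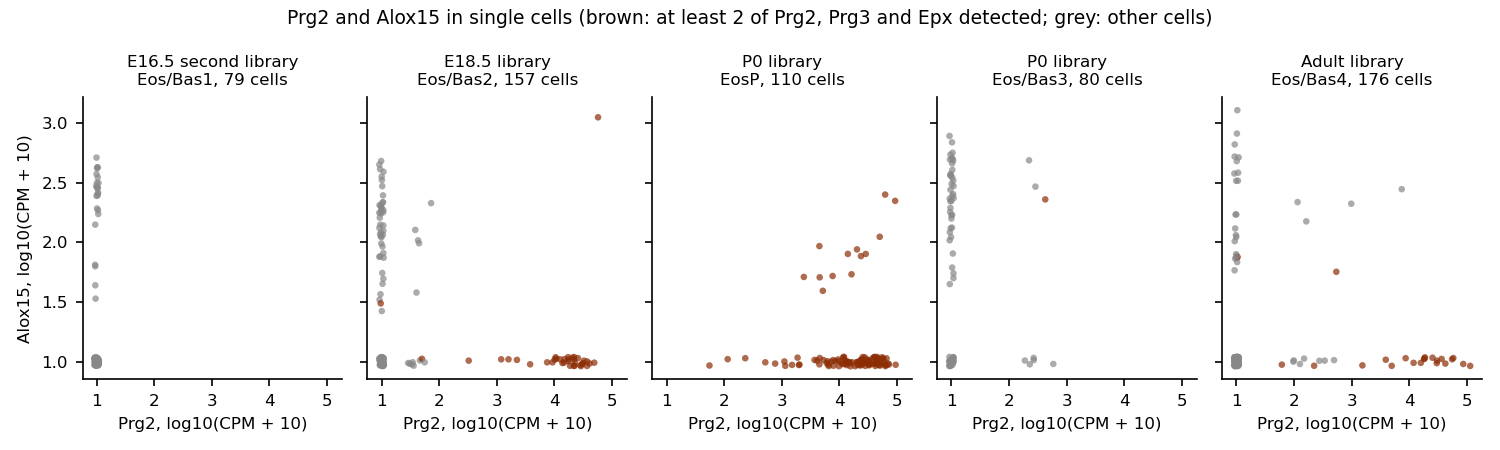
Prg2 against Alox15 in single cells of the Eos/Bas and EosP clusters, each axis as log10(CPM + 10), with points shifted slightly at random. Brown points are granule cells, with at least 2 of Prg2, Prg3 and Epx, and grey points are other cells. Most cells lie along 1 of the axes, and Eos/Bas1 has no cell with Prg2.

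The genes most like each member were ranked by Pearson's r of log2(CPM + 1) over 81 clusters of at least 20 cells and 15030 genes, as a description in which clusters share libraries and depth. Prg2 was most like Epx (r = 0.85), Ms4a3 (0.73), Cebpe (0.71), Prg3 (0.70) and Mpo (0.69). Epx was most like Prg2 (0.85), Ear1 (0.83), Ear6 (0.79), Prg3 (0.77) and Muc6 (0.72). Prg3 was most like Epx (0.77), Prg2 (0.70), Ear1 (0.66), Ear6 (0.66) and Ldhc (0.61), so the 3 granule genes named each other. Alox15 was most like Slc26a3 (0.89), Cela3b (0.89), Lypd6 (0.84), Adamtsl1 (0.83) and Cdh1 (0.82), and its r with Prg2 was 0.32. Gzmb was most like Gm973 (0.68), Pde3a (0.64), Trdv4 (0.63), Lmo4 (0.62) and B630019A10Rik (0.62), and its r with Prg2 was 0.05. No member other than the 3 granule genes was among the 5 genes most like another.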

How the data were processed

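The authors deposited raw UMI counts per gene and cell (20275 genes, 56201 cells), raw antibody counts, and a table of each cell's library, cluster code, UMI and gene counts and mitochondrial share of UMIs, which the authors gave as a fraction from 0 to 1. According to the labels and the methods, libraries were made with the Chromium 3′ v3.1 kit and counted with Cell Ranger 3.1.0 on mm10, and cells were filtered and clustered with Seurat 3.1.5 in R 4.0. Deposited cells had at least 300 UMIs, under 7.5% mitochondrial UMIs and lay below the 98th percentile of UMIs and genes, and genes were in at least 30 cells. The percentile limit was the only guard against doublets, and no doublet caller was run.

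The 5 members were found by symbol. UMIs were summed per library and cluster and divided by the summed UMIs (CPM), with exact Poisson intervals for levels and exact Clopper-Pearson intervals for shares, at 95% and for counting error only. A count of 0 allows up to 3 counts. Shares of cells were repeated after thinning to 1000 UMIs. Clusters under 10 cells were left out of comparisons of level. HP libraries and mast cell clusters were summed and tested with edgeR 4.0.16 in R 4.3.3 (quasi-likelihood F test, TMM, default filter on low counts, Benjamini-Hochberg adjusted p threshold 0.05), with each stage against E16.5. Each library is a pool of mice and the E16.5 libraries are not known to be separate pools, so p-values measure only the spread between these samples. The test was tested on simulated data. Other steps used Python 3.11.15, numpy 2.4.6, scipy 1.17.1 and pandas 2.3.3, and figures matplotlib 3.10.9.

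Named genes are the members, genes of marker and pathway lists and the 5 genes most like each member. Genes named from the lists are examples, and not all were the highest in the cells described. Members and lists were chosen with earlier results of these data known. Motifs were searched in RefSeq promoters of GRCm38.p6, and gene positions came from GENCODE on GRCm38. Alternatives were DESeq2 1.42.0, another normalization, no filter, cells of at least 1000 UMIs, no cells above the 95th percentile of UMIs, another summary over cells, either E16.5 library left out and, chosen after seeing the data, no cells sharing a barcode with a deeper cell of another library. The stromal libraries were used only for a look at signal outside the HPs.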

Additional observations from a re-analysis of the deposited data

Results flagged for a closer look

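The stromal libraries, sorted as CD45-negative Ter119-negative BM cells, are outside the comparisons above, and 3 counts of members in them lay above the 3 counts that a count of 0 allows. Prg2 had 67 UMIs in the adult stroma, of which 65 lay in 5 of 400 cells of the arterial endothelial cluster AECs, 48 in 1 cell and 14 in another. None of the 5 barcodes was in the adult HP library or deeper in another library, and the 5 cells held 52 UMIs of Cdh5, the endothelial cadherin, with 0 UMIs of Prg3 and Epx in the whole library. Epx had 6 UMIs in the E16.5 stroma, 4 of them in 3 of 62 cells of cluster UD1, beside 4 UMIs in both E16.5 HP libraries together. Prg2 had 5 UMIs in 4 cells of the P0 stroma. No cause of these counts was tested.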

How the results depend on the processing

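No called result changed direction under any alternative run. Leaving out either E16.5 library gives differences in log2(CPM + 1) with no test, since no residual degree of freedom is left, and with 2 libraries such a shift is within 1 SD by construction. Alox15 turned direction in HP sums at P0 (0.90 without the first library, -0.28 without the second) and in the adult (0.04 and -1.13) and was 2.44 and 1.26 at E18.5, and Prg2 in mast cell sums moved by over 1.5 times on the linear scale at E18.5 (0.93 and 2.47), P0 (2.29 and 3.82) and in the adult (3.04 and 4.57). No paired analysis was possible because the groups compared share fewer than 2 replicate numbers. Where values moved, the cause was not tested unless fewer cells or genes give it. With cells of at least 1000 UMIs, the leading cluster held 95.8% of Prg2 and 95.5% of Epx at E18.5 and 66.6% of Prg2 in the adult. Without cells above the 95th percentile of UMIs it held 97.2%, 96.9% and 95.9% of Prg2, Prg3 and Epx at E18.5, 94.0%, 90% and 91.4% at P0, and 78.4%, 69.6% and 83.4% in the adult. The share of cells with at least 2 of the 3 granule genes was 0.0211% (second E16.5 library), 1.31% (E18.5), 1.76% (P0) and 0.483% (adult) after thinning, and 1.12%, 2.24% and 0.618% from E18.5 on when 2 UMIs of each gene were required. Genes called in HP sums at E18.5 were 1 with edgeR, 35 with RLE normalization (21 higher, 14 lower), 485 with no filter, 352 with DESeq2 and 66 without shared barcodes. At P0 they were 47, 78, 713, 563 and 141, and in the adult 378, 1515 with no filter and 1164 with DESeq2. In mast cell sums at E18.5 they were 816, 1262 with no filter, 101 with DESeq2 and 1269 without shared barcodes, at P0 1233 and 116 with DESeq2, and in the adult 240, 394 with no filter and 135 with DESeq2. Of 24 tests of members under each alternative, those newly past the threshold were 5 with RLE, 8 with no filter, 5 with DESeq2 and 5 without shared barcodes, and DESeq2 lost 5. The mean of single-cell CPM put 20 of 25 library levels outside their intervals, with levels of at least 1 CPM at 0.904 to 2.50 times their value. Depth limits the tests of adult mast cells, whose sum held 263064 UMIs.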
